A study of Mus musculus with 6 samples.

Results

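A set of 10 genes, which act in the response to low oxygen and in the removal of mitochondria by autophagy, was measured in tumor endothelial cells (TECs) with and without Atg5. They are Hif1a and Vhl, which set HIF activity, the HIF target genes Adm, Angptl4, Vegfa, P4ha1 and Ndufa4l2, the mitophagy receptors Bnip3 and Bnip3l, and Stc1. Members were taken by gene name. All 10 had a row in the deposited table of 750 genes, and 8 of them were among the 379 genes that passed the authors' low-signal filter and were tested, while Vegfa and Ndufa4l2 were below it. Stc1 was in part chosen by its small p in this same contrast, that is, by the log2 values of these 6 samples. Its values are therefore described with their error, and no p-value is read for it.

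The study asked how autophagy in blood vessel cells shapes the tumor endothelium. TECs came from tumors of B16-F10, a mouse melanoma line grown under the skin, sorted on day 18 after grafting of 250000 cells into C57Blk6 mice. In Atg5BECKO mice, Pdgfb-CreERT2 removed the floxed Atg5 gene, which is essential for building autophagosomes, from blood endothelial cells once tamoxifen was given. These mice also carried a Rosa26 fluorescent reporter allele. WT mice were the Cre-negative littermates. The WT group held 3 samples, numbered 1, 4 and 6 in the labels, and the Atg5BECKO group 3, numbered 2, 3 and 5. These numbers run over all 6 samples and are used below as replicate numbers. Each sample was of live CD45- CD31+ cells. The tumor cells and all other host cells kept Atg5, and neither the labels nor the methods tell if a sample was 1 mouse or a pool, so the p-values cover only the variation among these 6 samples. RNA was read with the NanoString nCounter, which counts barcoded probes hybridized to transcripts without amplification. Values are log2 normalized counts. A probe's level was set against other probes only to place it against the low-signal genes and to describe lists of genes. The table has 0 probes for Atg5, so the deletion was not checked in these data.

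HIF is a dimer of an oxygen-regulated alpha subunit, such as the HIF-1 alpha encoded by Hif1a, and a stable beta subunit. With oxygen present, prolyl hydroxylases mark the alpha subunit, the VHL ubiquitin ligase binds the mark and the protein is degraded, so that HIF is controlled chiefly at the protein level. When oxygen is scarce the dimer accumulates and binds a short core sequence, ACGTG or GCGTG, near genes for glycolysis, vessel growth and mitochondrial turnover. BNIP3 and BNIP3L (also called NIX) sit in the outer mitochondrial membrane and bind LC3-family proteins on the growing autophagosome, a step that lies downstream of ATG5.

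Promoters are shown for members because the results below turn on which HIF target genes moved together. Windows of 250 bases before to 50 bases after the transcription start were taken from RefSeq (build GRCm38.p6), and 6 of the 10 members had one. The 4 printed here are those of Bnip3 and Adm, which shared much of their variation between samples, of Hif1a, which was higher in every Atg5BECKO sample, and of P4ha1, which was nearly flat. Each is written 5′ to 3′ on the gene's strand, and capitals mark every ACGTG or GCGTG, or their reverse complements CACGT and CACGC.
Bnip3 (chr7:138909457-138909756, minus strand): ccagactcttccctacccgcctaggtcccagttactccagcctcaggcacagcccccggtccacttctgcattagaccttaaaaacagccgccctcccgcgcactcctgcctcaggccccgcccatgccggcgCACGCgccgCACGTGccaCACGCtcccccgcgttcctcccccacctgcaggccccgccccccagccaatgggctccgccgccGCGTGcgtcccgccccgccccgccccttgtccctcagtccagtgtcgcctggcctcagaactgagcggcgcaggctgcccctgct
Adm (chr7:110627407-110627706, plus strand): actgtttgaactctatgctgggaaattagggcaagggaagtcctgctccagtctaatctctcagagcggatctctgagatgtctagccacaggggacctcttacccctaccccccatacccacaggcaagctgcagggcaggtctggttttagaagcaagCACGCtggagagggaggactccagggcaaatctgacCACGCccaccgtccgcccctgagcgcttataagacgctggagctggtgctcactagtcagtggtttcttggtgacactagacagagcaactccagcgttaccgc
Hif1a (chr12:73907617-73907916, plus strand): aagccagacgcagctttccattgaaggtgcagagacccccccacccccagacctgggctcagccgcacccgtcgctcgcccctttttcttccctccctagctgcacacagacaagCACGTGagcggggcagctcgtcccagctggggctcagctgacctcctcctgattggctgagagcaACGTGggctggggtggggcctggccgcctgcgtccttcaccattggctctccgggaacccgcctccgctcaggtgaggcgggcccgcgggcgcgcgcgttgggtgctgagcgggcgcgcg
P4ha1 (chr10:59323046-59323345, plus strand): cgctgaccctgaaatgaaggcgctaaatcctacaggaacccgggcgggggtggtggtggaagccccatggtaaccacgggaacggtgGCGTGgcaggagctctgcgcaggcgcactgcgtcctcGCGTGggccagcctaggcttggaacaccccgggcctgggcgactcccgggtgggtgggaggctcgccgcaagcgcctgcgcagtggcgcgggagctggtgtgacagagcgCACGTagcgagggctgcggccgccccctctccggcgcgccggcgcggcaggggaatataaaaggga

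The Bnip3 window held 5 matches at 4 separate places. Of these, CACGT and ACGTG overlap in the palindrome that begins 108 bases before the start. Adm held 2 matches, both on the reverse strand, at 90 and 54 bases before the start. Hif1a held 3 matches at 2 places and P4ha1 held 3 matches at 3 places. Of the 2 windows listed for Vegfa, 1 held 2 matches and the other 0, and the Vhl window held 0. One or more matches stood in 5 of the 7 member windows (71.4%), with Vegfa counted by only 1 of its 2. The same held for 43.8% of all 32851 promoters in the table and for 59.2% of the 363 promoters that belong to tested genes. A match by itself was therefore common. Windows with 5 or more matches, as in Bnip3, made up 1.66% of all promoters. Angptl4, Bnip3l, Stc1 and Ndufa4l2 had no window in the table. A match is only a run of letters and was not read as a binding site.

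Total counts ranged from 76784 in WT replicate 6 to 244561 in WT replicate 4, and the median count of a tested gene from 58 to 139. WT replicate 4 stood apart from the other samples. It lay at 13.3 on the first principal component (57.1% of the variance), the other 5 samples lay between -6.28 and 3.41, and it was the lowest of the 6 samples for 50.9% of tested genes. Endothelial identity genes were abundant in all samples (10 of 10 tested), with Pecam1 at a mean level of 12.64 and a mean over the list of 10.51 to 10.57 in WT and 10.45 to 10.76 in Atg5BECKO TECs. The most abundant fibroblast and mural markers moved with genotype. Col6a3, Thy1 and Olfml2b, the 3 of the 9 markers that were tested, averaged 7.69, 7.31 and 6.31 in WT replicates 1, 4 and 6 and 6.07, 5.48 and 5.71 in Atg5BECKO replicates 2, 3 and 5. The summed normalized counts of all 9 markers were 335 to 830 in WT and 224 to 329 in Atg5BECKO TECs. Of the 6 markers below the filter, 3 had a higher mean in Atg5BECKO TECs (Vcan by 1.10, Cdh11 by 0.32 and Fap by 0.17 on the log2 scale) and 3 a lower one. Leukocyte markers (4 of 23 tested) summed to 299 to 811 in WT and 458 to 621 in Atg5BECKO TECs, and Ptprc, which encodes CD45, was below the low-signal filter. In bulk samples of this kind, fewer cells of a type and less RNA per cell cannot be told apart.

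In the whole comparison, 0 of 379 genes (0%) had a limma p under 0.05 after Benjamini-Hochberg adjustment, and so none of the 7 tested members other than Stc1. At an unadjusted p under 0.05, 58 genes were higher (15.3%) and 3 lower (0.792%) in Atg5BECKO TECs. With voom, limma's method for counts, on the recovered counts, 20 genes (5.28%) had an adjusted p under 0.05, none of them among the 7 tested members other than Stc1. At the thresholds used in the paper, a log2 fold change of 0.7 or more in either direction with an unadjusted p under 0.05, 41 genes were higher (10.8%) and 3 lower (0.792%), and none of these was among the 7 tested members other than Stc1. The median tested gene was itself 0.24 higher on the log2 scale in Atg5BECKO TECs, and 74.4% of tested genes had a positive log2 fold change, as did 8 of the 8 tested members. When each sample was instead centred on its own median tested gene, which moved the groups by 0.38 against each other, 33.0% of tested genes and 4 of 8 members stayed positive. The direction of a small change therefore depended on the scaling, and the members are described below against this background.

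**Figure D1:**
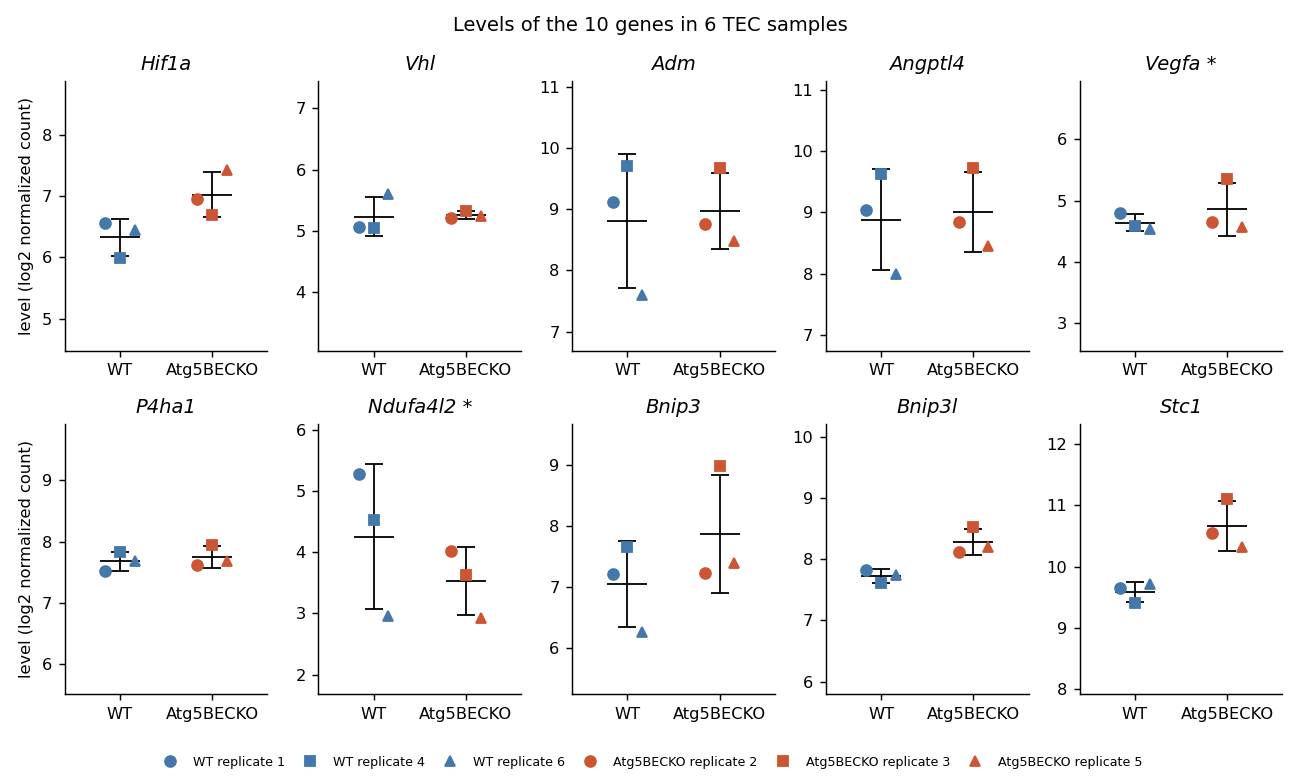
Levels (log2 normalized count) of the 10 genes, 1 panel per gene, with the samples as points, the group mean as a bar and the SD (n = 3) as whiskers. All panels span the same log2 range, so spreads can be compared but levels of different genes cannot. An asterisk marks genes below the low-signal filter. The groups do not overlap for Hif1a, Bnip3l and Stc1, while Adm, Angptl4 and Bnip3 spread widely within both groups.

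Hif1a, the oxygen-regulated subunit, had groups that did not overlap, with all 3 Atg5BECKO samples on the higher side. Its level was 6.56, 5.99 and 6.44 in WT replicates 1, 4 and 6 and 6.96, 6.70 and 7.42 in Atg5BECKO replicates 2, 3 and 5. WT replicate 4 was the lowest and Atg5BECKO replicate 5 the highest, and the gap between the nearest samples of the groups, WT replicate 1 and Atg5BECKO replicate 3, was 0.14. The mean level was 6.33 ± 0.30 in WT and 7.03 ± 0.37 in Atg5BECKO TECs (SD, n = 3 each), a log2 fold change of 0.69 (SE 0.26, 95% confidence interval 0.074 to 1.32), or 1.62-fold. After adjustment over all tested genes it did not pass (limma, adjusted p = 0.249). The recovered counts behind these levels were 102, 100 and 45 in WT and 138, 101 and 181 in Atg5BECKO TECs, and the 45 counts of WT replicate 6 alone carry a Poisson interval of 32.8 to 60.2. Median centring left a log2 fold change of 0.32, and the groups then overlapped.

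Vhl, the substrate receptor of the ligase that marks HIF-1 alpha for degradation, showed almost no difference between the group means. Its level was 5.06, 5.05 and 5.60 in WT and 5.21, 5.32 and 5.25 in Atg5BECKO TECs, in the same order of replicates. All 3 Atg5BECKO samples lay inside the WT range. The log2 fold change was 0.026 (SE 0.21, interval -0.47 to 0.53, limma adjusted p = 0.949). Counts of 25 to 52 per sample stood behind it, and its level was 1.06 to 1.70 above the median low-signal gene of the same sample on the log2 scale. With median centring all 3 Atg5BECKO samples were below all 3 WT samples, with a log2 fold change of -0.35.

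The list of HIF partners held 3 genes, of which 2 were tested. Mxi1 stands in it as a gene induced by HIF rather than a part of the HIF machinery. Elob, a subunit that joins VHL to its ligase, had a log2 fold change of -0.25 (limma adjusted p = 0.605). Mxi1, a MYC antagonist induced by HIF, had one of 0.49 with groups that did not overlap (adjusted p = 0.351), which was 0.11 with median centring and 0.27 without Atg5BECKO replicate 3. The HIF beta subunit gene Arnt2 was below the low-signal filter.

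Adm encodes adrenomedullin, a peptide that dilates vessels and tightens the endothelial barrier. Its level was 9.12, 9.71 and 7.60 in WT replicates 1, 4 and 6 and 8.76, 9.67 and 8.48 in Atg5BECKO replicates 2, 3 and 5. The highest and the lowest of all 6 values were both WT samples, replicate 4 with 1318 counts and replicate 6 with 100, a 4.33-fold range on the normalized scale. Mean levels were 8.81 ± 1.09 in WT and 8.97 ± 0.62 in Atg5BECKO TECs (SD, n = 3 each). The log2 fold change of 0.16 (SE 0.57, interval -1.20 to 1.52) was far smaller than that spread (limma adjusted p = 0.903), and without WT replicate 6 it became -0.44.

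Angptl4, a secreted inhibitor of lipoprotein lipase that is also made by hypoxic endothelium, ran nearly parallel to Adm. Its level was 9.04, 9.63 and 7.99 in WT and 8.84, 9.72 and 8.45 in Atg5BECKO TECs. Atg5BECKO replicate 3 and WT replicate 4 were highest and WT replicate 6 lowest. The log2 fold change was 0.12 (SE 0.49, interval -1.04 to 1.28, limma adjusted p = 0.914), and without WT replicate 6 it became -0.33. The within-group SD was larger for Adm than for 97.6% of tested genes, and larger for Angptl4 than for 92.1%.

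Vegfa, the main endothelial growth factor, is made largely by cells other than endothelium, and it was low here. Its level was 4.79, 4.59 and 4.54 in WT and 4.66, 5.36 and 4.57 in Atg5BECKO TECs, from 12 to 40 counts per sample. In WT replicate 6 it equalled the median low-signal gene, and elsewhere it was 0.47 to 1.51 above it on the log2 scale. Only Atg5BECKO replicate 3 stood above the rest. The difference of 0.22 between group means was no larger than the spread (exact two-sided permutation test, p = 0.6, where 3 against 3 samples allow no p below 0.1).

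The other genes of the VEGF family lay within their spread too. Of Flt1, Kdr and Vegfc, 0 of 3 reached an unadjusted p under 0.05, where 15.3% of all tested genes were higher and 0.792% lower. The log2 fold changes of the 3 were 0.26, -0.11 and -0.26, with a median of -0.11. Flt1 and Kdr encode VEGF receptors 1 and 2. Their fitted means were 13.06 in WT and 13.33 in Atg5BECKO TECs for Flt1 and 12.10 and 11.98 for Kdr.

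P4ha1 encodes a catalytic subunit of the collagen prolyl 4-hydroxylase, an enzyme of the endoplasmic reticulum that is distinct from the hydroxylases acting on HIF. It had the smallest range of the members. Its level was 7.52, 7.84 and 7.68 in WT and 7.62, 7.95 and 7.69 in Atg5BECKO TECs, a 1.34-fold range over all 6 samples with 106 to 360 counts behind it. The log2 fold change was 0.073 (SE 0.19, interval -0.37 to 0.52, limma adjusted p = 0.856). Of the 4 other tested genes of collagen modification and oxidative folding, 0 reached an unadjusted p under 0.05. Over all tested genes, 15.3% were higher and 0.792% lower at that level. Plod2, a lysyl hydroxylase (0.39, adjusted p = 0.379), and Ero1l, which oxidizes protein disulfide isomerase (0.49, adjusted p = 0.380), had groups that did not overlap. Such groups were seen for 25.6% of all tested genes on the higher side and 2.11% on the lower side. Median centring left 0.012 for Plod2 and 0.11 for Ero1l, and Ero1l had 0.23 without Atg5BECKO replicate 3. Serpinh1, the collagen chaperone HSP47, had a log2 fold change of -0.35 (adjusted p = 0.589).

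Ndufa4l2, whose product lowers complex I activity in hypoxia, was the only member with a lower mean in Atg5BECKO TECs on the deposited scale, and it was close to background. Its level was 5.28, 4.52 and 2.95 in WT and 4.02, 3.62 and 2.93 in Atg5BECKO TECs. WT replicates 1 and 4 were highest, with 42 and 36 counts, and WT replicate 6 had 4 counts, for which the Poisson interval is 1.09 to 10.2. The groups overlapped, since WT replicate 6 lay within the Atg5BECKO range, with a difference of -0.73 between the means (exact two-sided permutation test, p = 0.4). The gene is known as a marker of pericytes, and the summed fibroblast and mural markers were highest in WT replicates 1 and 4 (830 and 623 against 224 to 335). Single markers went both ways. Pdgfrb, below the low-signal filter, was 6.87 and 5.98 there against 4.12 to 4.80 elsewhere. Fap (3.70 and 3.67) and Vcan (3.35 and 3.25), also below it, were lowest in those same replicates. The part of such cells in the level of Ndufa4l2 was not tested.

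Bnip3 and Bnip3l, the paired mitophagy receptors, differed in how they varied. Bnip3 was 7.22, 7.66 and 6.27 in WT replicates 1, 4 and 6 and 7.23, 8.97 and 7.39 in Atg5BECKO replicates 2, 3 and 5. Atg5BECKO replicate 3, with 490 counts, was far above all the others, and WT replicate 6, with 40 counts, was far below, so that the 6 samples spanned 6.50-fold. Mean levels were 7.05 ± 0.71 in WT and 7.87 ± 0.96 in Atg5BECKO TECs (SD, n = 3 each). The log2 fold change of 0.82 (SE 0.55, interval -0.48 to 2.12) was within that spread (limma adjusted p = 0.481). Without Atg5BECKO replicate 3 it was 0.26, and without WT replicate 6 it was 0.43.

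Bnip3l was far tighter and its groups did not overlap. Its level was 7.82, 7.60 and 7.75 in WT and 8.12, 8.52 and 8.20 in Atg5BECKO TECs. The lowest Atg5BECKO sample was 0.30 above the highest WT sample. Mean levels were 7.73 ± 0.11 in WT and 8.28 ± 0.21 in Atg5BECKO TECs (SD, n = 3 each), a log2 fold change of 0.55 (SE 0.19, interval 0.11 to 1.00) or 1.47-fold, with 111 to 357 counts per sample. Its adjusted p was 0.196 in limma, and over the 6 fits that left out 1 sample each the log2 fold change was 0.43 to 0.63. The within-group SD was smaller than that of most genes, with 19.3% of tested genes below it. Median centring reduced the log2 fold change to 0.17, and the groups then overlapped.

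The BCL2 family, to which both receptors are distantly related, gave no call. Of the 5 other tested family genes, 0 reached an unadjusted p under 0.05, where 15.3% of all tested genes were higher and 0.792% lower. Their median log2 fold change was -0.014. Bcl2l1, which encodes the survival factor BCL-XL, had -0.13 (limma adjusted p = 0.771), with all 3 Atg5BECKO samples (6.82 to 6.93) below the WT samples (6.95 to 7.11), and -0.51 with median centring. Bax, a pore former of the outer mitochondrial membrane, had -0.071, and Bcl2 had 0.050. The panel's autophagy annotation holds 19 tested genes, Bnip3 and Hif1a among them. Of the other 17, 3 were higher at an unadjusted p under 0.05 and 0 lower, and the median log2 fold change was 0.14, below the 0.24 of all tested genes. Among them were the signaling genes Rps6kb1, the mTOR substrate S6 kinase (0.74, limma adjusted p = 0.185), and Pik3r1, a regulatory subunit of PI3K (0.59, adjusted p = 0.249).

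Stc1 encodes stanniocalcin-1, a secreted glycoprotein first known as a calcium-regulating hormone of fish and induced by HIF and by VEGF in endothelial cells. It had the widest gap between groups among the members. Its level was 9.65, 9.41 and 9.71 in WT and 10.55, 11.10 and 10.32 in Atg5BECKO TECs. The recovered counts were 866, 1068 and 432 against 1663, 2145 and 1345. The lowest Atg5BECKO sample was 0.61 above the highest WT sample on the log2 scale. Mean levels were 9.59 ± 0.16 in WT and 10.66 ± 0.40 in Atg5BECKO TECs (SD, n = 3 each), a log2 fold change of 1.07 (SE 0.25) or 2.10-fold. The value was 0.85 to 1.24 when 1 sample was left out, 0.69 with median centring, 0.82 with quantile normalization and 1.00 when samples were scaled on the endothelial identity genes. Both with median centring and with endothelial scaling the 3 Atg5BECKO samples stayed above the 3 WT samples. As Stc1 was in part chosen by its small p in these same samples, its gap and these values are a description only.

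**Figure D2:**
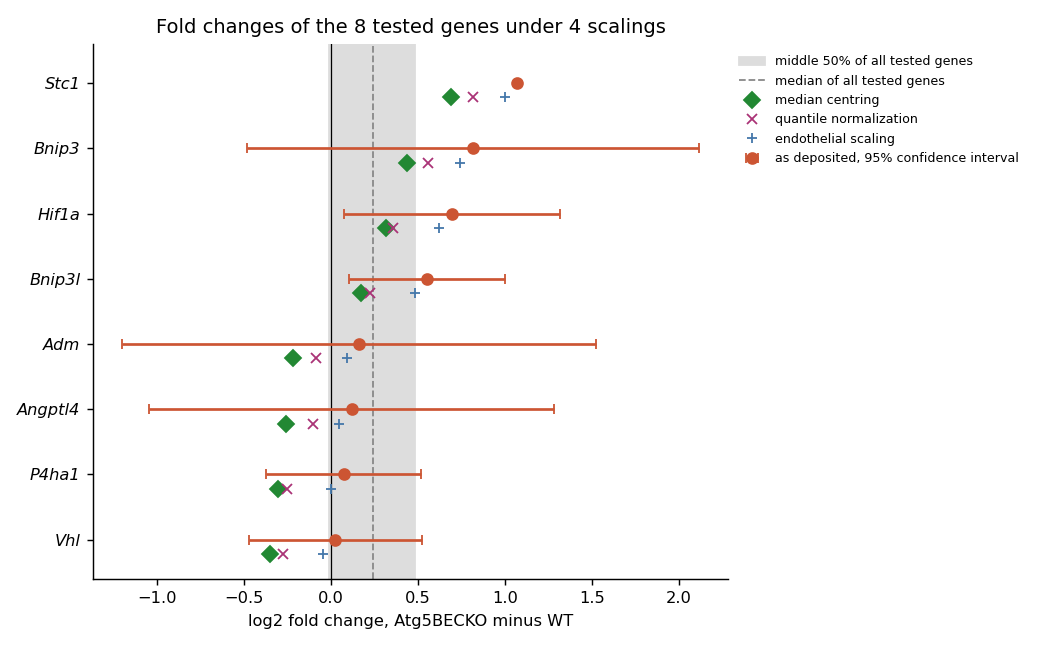
Log2 fold change (Atg5BECKO minus WT) of the 8 tested genes. Circles give the deposited scale, with the 95% confidence interval as whiskers for all genes but Stc1, and the other symbols give 3 other scalings. The band covers the middle 50% of all tested genes on the deposited scale (-0.0098 to 0.48), so only the circles can be set against it. With median centring the median of all tested genes is -0.14. Bnip3, Hif1a, Bnip3l and Stc1, the last in part chosen by its small p, lie above 0 under all 4 scalings. Adm, Angptl4, P4ha1 and Vhl fall below 0 with median centring and with quantile normalization.

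Read together, 3 of 8 tested members (Hif1a, Bnip3l and Stc1) had groups without overlap, all higher in Atg5BECKO TECs, against 25.6% of all tested genes higher and 2.11% lower in this way. With Stc1 left aside as chosen, this share was close to the background. With median centring 8.44% of tested genes were higher and 12.9% lower without overlap, and of the members Stc1 was among the higher and Vhl among the lower. With endothelial scaling, where 17.2% of tested genes were higher and 2.64% lower in this way, Stc1 and Bnip3l were higher without overlap, and Hif1a was not.

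The members differed in the order of the samples. Adm and Angptl4 had a Pearson r of 0.99 over the 6 samples (Spearman rho 0.94), and r was 0.99 again without the 2 samples farthest from the median of Adm. Adm and Bnip3 had an r of 0.82 (rho 0.71), and 0.82 without those 2 samples. Angptl4 and Bnip3 had an r of 0.84, which was 0.61 without the 2 samples farthest from the median of Angptl4. Stc1 and Bnip3l had an r of 0.98 (rho 0.89), and Stc1 and Adm one of 0.18 (rho -0.20). Bnip3 and Bnip3l lay between, with an r of 0.68 (rho 0.43) that turned to -0.59 without the 2 samples farthest from the median of Bnip3. These are descriptions of 10 pairs over 6 samples that share their library depth and normalization factor, and part of the likeness of Stc1 and Bnip3l is the group difference itself. With the group means removed, r was 0.99 for Adm and Angptl4, 0.89 for Adm and Bnip3, 0.88 for Stc1 and Bnip3l and 0.58 for Bnip3 and Bnip3l. Hif1a had an r of 0.66 with Bnip3l (rho 0.83), 0.59 with Stc1 (rho 0.71) and -0.32 with Adm (rho -0.37). With the group means removed, r was -0.15 with Bnip3l, -0.45 with Stc1 and -0.66 with Adm. Without the 2 samples farthest from the median of Hif1a, its r with Adm was 0.42. Hif1a mRNA was lowest in WT replicate 4, as were 50.9% of tested genes, and Adm was highest there.

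The genes most like each member came from different groups. Those nearest to Adm, apart from Angptl4, were Pvr, the adhesion receptor CD155 (r = 0.98, 0.96 after median centring), and Ldha, which makes lactate (0.95, 0.90 after centring). Angptl4 had Pvr (0.99) and Ldha (0.92) as its nearest as well. For Bnip3 they were Cdkn1a, the cell cycle inhibitor p21 (0.95, 0.98 after centring), Ifitm2, an interferon-induced membrane protein (0.95, but 0.68 after centring), and Slc2a1, the glucose transporter GLUT1 (0.93, 0.88 after centring).

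Around Stc1 they were Palmd, which encodes palmdelphin (0.99, and 0.99 after centring), Tlr4, the lipopolysaccharide receptor (0.98, 0.99 after centring), and Pfkfb3, an activator of endothelial glycolysis (0.98, but 0.62 after centring). Around Bnip3l they were Palmd (0.98, 0.86 after centring), Dusp1, an immediate-early phosphatase (0.98, and 0.98 after centring), and Stc1. Hif1a was most like Ifit1, an interferon-induced gene (0.98, 0.94 after centring), Parp4 (0.97, but 0.24 after centring) and Cdkn1c, the cell cycle inhibitor p57 (0.95, 0.88 after centring). Vhl had Ikbkg, Map3k12 and Reln (0.92 to 0.95). P4ha1, which varied least, had Gimap4, Slc2a1 and Rpl23 (0.82 to 0.84).

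**Figure D3:**
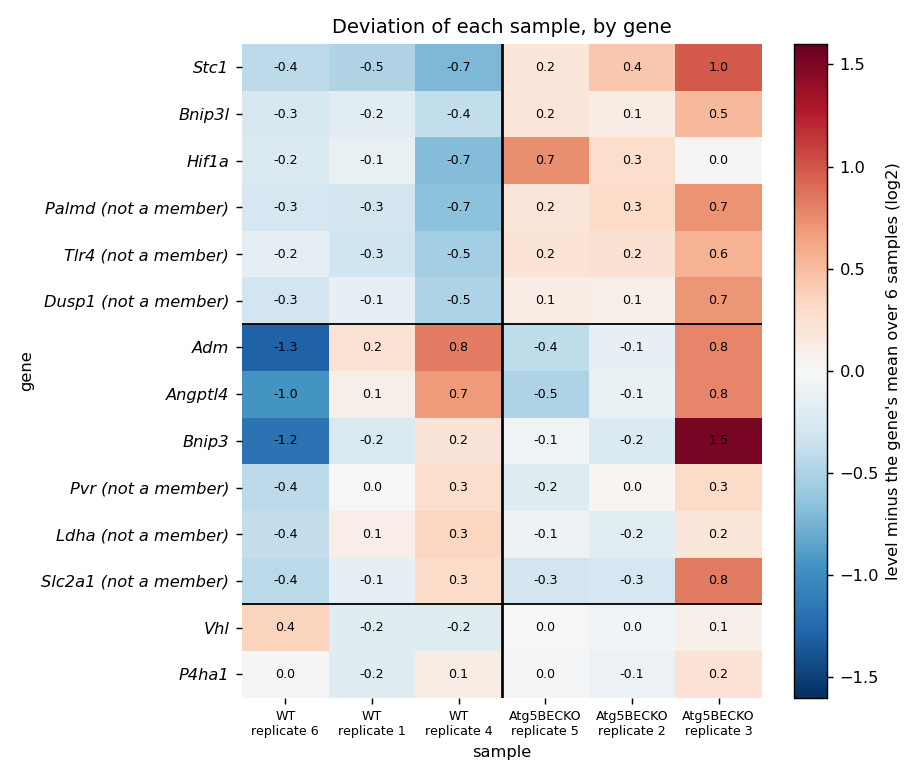
Level of each sample minus the gene's mean over the 6 samples (log2, red above and blue below) for the 8 tested members and 6 of the genes most like them. Stc1, Bnip3l, Palmd, Tlr4 and Dusp1 change sign at the line between WT and Atg5BECKO, whereas Adm, Angptl4, Bnip3, Pvr, Ldha and Slc2a1 are lowest in WT replicate 6 and high in WT replicate 4 and Atg5BECKO replicate 3. The 6 genes were picked without a set rule, so the 2 blocks depend in part on that choice. Cdkn1a, the gene most like Bnip3, is not drawn. Its groups did not overlap, and it was 8.80 in WT replicate 4 against 10.16 in Atg5BECKO replicate 3.

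Many glycolytic genes had their extremes in the same samples as Adm, though whether they followed that order more than genotype was not tested. Of 9 tested genes of glucose transport and glycolysis, 7 were lowest in WT replicate 6, a sample that was lowest for 15.6% of all tested genes. WT replicate 4 or Atg5BECKO replicate 3 was highest for 7, and over all tested genes these samples were highest for 8.97% and 31.9%. The exceptions at the top were Hk1 and Aldoc, which were highest in WT replicate 6. WT replicate 6 was also lowest for 3 of the 8 tested members, namely Adm, Angptl4 and Bnip3. Atg5BECKO replicate 3 was highest for 5 of 8, against 31.9% of all tested genes. Ldha was 11.19, 11.43 and 10.70 in WT and from 10.91 in replicate 2 to 11.27 in replicate 3 in Atg5BECKO TECs. WT replicate 6 was the shallowest sample. The part of depth and of the normalization factor in the order of samples was not tested.

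Between genotypes the glycolysis list hardly moved. Its median log2 fold change was 0.12, and 1 of 9 genes, against 15.3% of all tested genes, was higher at an unadjusted p under 0.05. This was Pfkfb3, which makes the activator of phosphofructokinase (0.45, SE 0.18, limma adjusted p = 0.266) and whose groups did not overlap. Median centring left 0.073 and quantile normalization 0.15, and with either its unadjusted p was no longer under 0.05, nor was it in 5 of the 6 fits that left out 1 sample. Pdk1, which keeps pyruvate out of mitochondria, had a log2 fold change of 0.42 (adjusted p = 0.481), which was 0.037 with median centring and 0.13 without WT replicate 6. Hk1, hexokinase 1, had -0.11 with all 3 Atg5BECKO samples below the WT samples (adjusted p = 0.795), and -0.49 with median centring.

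Vascular signals known to respond to hypoxia gave no call. Of 7 tested genes, 0 reached an unadjusted p under 0.05, 2 were positive and 5 negative, and their median was -0.19. Nos2, inducible nitric oxide synthase, had -0.29 with groups that did not overlap (limma adjusted p = 0.475) and -0.66 with median centring, and Cxcr4, a tip cell chemokine receptor, had 0.25 (adjusted p = 0.647). Of the 29 other tested genes in the panel's hypoxia annotation, 5 were higher at an unadjusted p under 0.05 and 0 lower, with a median of 0.21. Over all tested genes these shares were 15.3% and 0.792%, with a median of 0.24. The smallest p-values in that set belonged to Tlr4 (0.69, adjusted p = 0.148), the cytokine Il6 (1.92, adjusted p = 0.164) and Rps6kb1. The glycolytic gene Pfkfb3 was also among the 5.

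Immediate-early and stress genes, which respond within minutes to stimulation and also to tissue digestion and sorting, moved with the same samples as Stc1 and Bnip3l. All 7 tested genes had a positive log2 fold change, against 74.4% of all tested genes, with a median of 0.74 against 0.24. At an unadjusted p under 0.05, 5 of the 7 were higher, against 15.3% of all tested genes. The mean level of the list was 8.83, 8.07 and 8.74 in WT replicates 1, 4 and 6 and 9.12, 9.83 and 9.38 in Atg5BECKO replicates 2, 3 and 5. Atf3 (1.51, limma adjusted p = 0.145) and Egr1 (1.80, adjusted p = 0.145) are transcription factors of this class, and Dusp1 (0.61, adjusted p = 0.258) was also among the genes nearest to Bnip3l. Atg5BECKO replicate 3 was the highest sample for Stc1, Bnip3l, Bnip3 and this list, as for 31.9% of all tested genes. WT replicate 4 was the lowest for Stc1, Bnip3l, Hif1a and this list, as for 50.9% of all tested genes. The part of these genes' response, and of the depth or the fibroblast and mural markers that also moved with genotype, in the values of Stc1, Bnip3l and Hif1a was not tested.

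**Figure D4:**
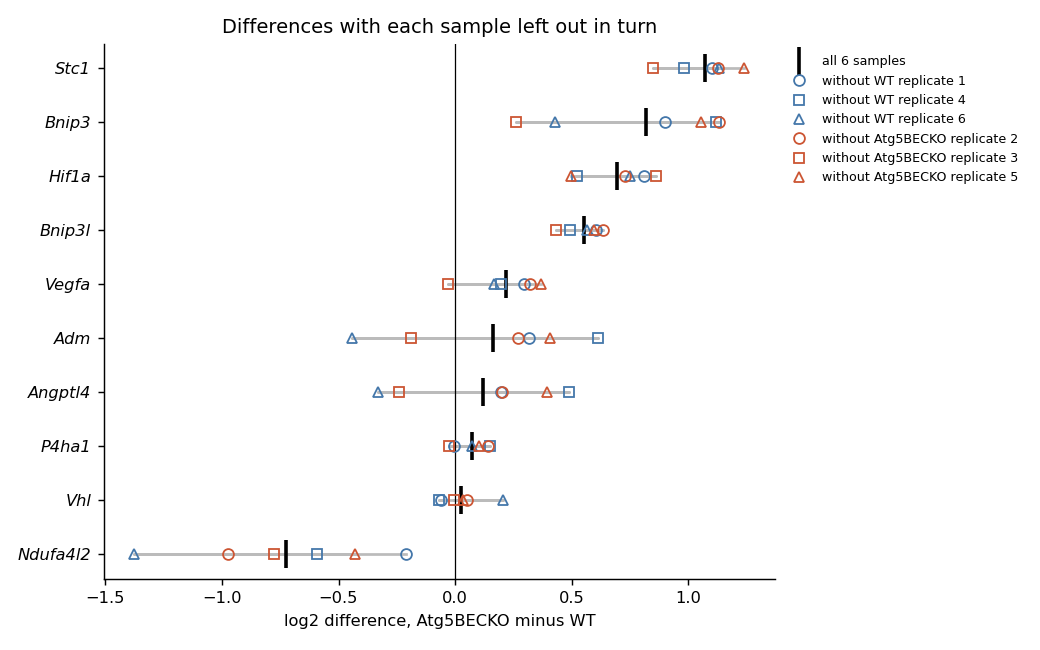
Log2 difference (Atg5BECKO minus WT) of each of the 10 genes with all 6 samples (black bar) and with each sample left out in turn (open symbols). Stc1 (0.85 to 1.24), Bnip3l (0.43 to 0.63), Hif1a (0.50 to 0.86) and Bnip3 (0.26 to 1.13) stay above 0 throughout. Stc1 was in part chosen by its small p. Ndufa4l2 stays below 0, and Adm, Angptl4, P4ha1, Vhl and Vegfa cross 0.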

How the data were processed

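RNA of 3 WT and 3 Atg5BECKO samples was counted with the nCounter. PanCancer Mouse Immune Profiling is the panel given in the methods. The annotation of the genes looks like that of another panel, and this was not settled. The authors normalized the counts with nSolver 4.0 (advanced analysis), with 1 factor per sample, and the deposited values are log2 of these normalized counts, with no background taken off. Whole counts were recovered from these values (100% whole within 0.01 in every sample).

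Groups came from the sample labels. Deposited log2 values of the 379 genes kept by nSolver's low-signal filter were fitted with the lmFit and eBayes functions of limma 3.58.1 (R 4.3.3, two-sided, Benjamini-Hochberg adjustment over all 379). Genes below the filter were compared with an exact permutation test (scipy 1.17.1). Poisson intervals cover counting error only. Promoters and their build come from RefSeq tables.

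Members and lists were chosen with earlier results of these data known. The text names the members, up to 3 other genes of each list with the smallest p, the 3 genes of highest r for each tested member, and up to 3 genes of each marker list. Arnt2, Ptprc, Pdgfrb, Vcan, Cdh11 and Fap were named outside this rule. A gene that the rule takes is not reported here. Alternatives were other filters, scalings, pseudocount and variance models, the methods' t-test, voom on recovered counts and leaving out each sample.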

Additional observations from a re-analysis of the deposited data

How the results depend on the processing

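On 3 samples a group, the counts of calls and the small changes were the least stable, and the cause was not tested. No paired analysis was made because the labels do not tell if samples of the groups were matched. Genes with an adjusted p under 0.05 numbered 20 with voom and 0 to 18 with 1 sample left out (18 without WT replicate 6), against 0. At the paper's thresholds, median centring gave 17 higher and 13 lower, quantile normalization 21 and 9, no filter 5 lower and the methods' t-test 1 lower, against 41 and 3. With 1 sample left out there were 30 to 58 higher and 3 to 4 lower.

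Median centring took the log2 fold change of Stc1 to 0.69 and turned Vhl to -0.35, Adm to -0.22, Angptl4 to -0.26, P4ha1 to -0.31, Vegfa to -0.16, Cxcr4 to -0.13, Flt1 to -0.12 and Bcl2 to -0.33. Quantile normalization gave -0.27 for Vhl, -0.086 for Adm, -0.10 for Angptl4, -0.25 for P4ha1 and -0.13 for Bcl2. Endothelial scaling gave -0.046 for Vhl and -0.021 for Bcl2. With 1 sample left out, the ranges were -0.068 to 0.21 for Vhl, -0.44 to 0.61 for Adm, -0.33 to 0.49 for Angptl4, -0.025 to 0.15 for P4ha1, -0.029 to 0.37 for Vegfa, -0.046 to 0.51 for Flt1, -0.26 to 0.083 for Kdr, -0.30 to 0.10 for Bax and -0.065 to 0.23 for Bcl2. Hif1a, Bnip3, Bnip3l and Stc1, the last in part chosen by its small p, stayed positive, and Ndufa4l2 negative, under every alternative that was run for them.

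List medians under median centring were -0.26 for HIF partners (2 tested genes), -0.25 for glycolysis, -0.57 for vascular signals and -0.49 for the VEGF family. They were -0.073 for collagen modification, -0.39 for the BCL2 family, -0.17 for the hypoxia set and -0.24 for the autophagy set. Quantile normalization gave -0.15 for HIF partners, -0.12 for glycolysis, 0.044 for collagen modification, -0.34 for the BCL2 family, -0.059 for the hypoxia set and -0.060 for the autophagy set. With 1 sample left out the glycolysis median was -0.11 to 0.16. At the paper's thresholds, the autophagy set held 1 gene with endothelial scaling, the mean level filter or the pseudocount and 0 with median centring or quantile normalization, against 2, and 1 to 3 with 1 sample left out. The hypoxia set held 1 gene with endothelial scaling, the mean level filter, median centring, the t-test, the pseudocount or quantile normalization, against 2, and 1 to 3 with 1 sample left out. The vascular signals held 0 to 1 with 1 sample left out. A HIF core motif stood in 38.6% of promoters when only the bases before the start were read.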
